A study of Mus musculus with 18 samples.

Results

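Ifnar2, Ifnar1, Ifngr2 and Il10rb are the 4 receptor genes of the interferon and interleukin 10 receptor cluster on mouse chromosome 16, and they were taken by gene name as 4 of the 55385 genes in the tables. They were measured in polyadenylated RNA from 18 adult mouse livers, in 3 genotypes of 6 mice each, with 3 males and 3 females per genotype and ages of 17.1 to 18.0 weeks. Dp16-2xIFNRs mice carry the Dp16 duplication with the receptor genes at 2 copies, Dp16 mice carry 3 copies of the chromosome 16 segment from Lipi to Zbtb21 as a model of trisomy 21, and wild-type C57BL/6J mice have 2 copies of the segment. Where the region corrected in Dp16-2xIFNRs ends is not stated by the labels. The labels list each library as a separate sample of its genotype, and the p-values measure the spread between these samples. Most of the libraries share the full number in their description with a library of another genotype, and the main tests treat them as independent. What that number stands for is not stated, and only its first digits were tried as a term.

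Type I interferons signal through a receptor made of the IFNAR1 and IFNAR2 chains, interferon gamma through IFNGR1 and IFNGR2, and both receptors act through JAK kinases and STAT transcription factors. IL10RB is the chain shared by the receptors for interleukin 10, interleukin 22 and interferon lambda, and it pairs with IL10RA, IL22RA1 or IFNLR1. In the liver, hepatocytes and the resident immune and endothelial cells all carry interferon receptors, and Ifnar2 also gives rise to a soluble form that gene counts do not separate from the membrane form.

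All 4 genes lie on the plus strand within 192.8 kb (GRCm38, GENCODE M21). Ifnar2 (ENSMUSG00000022971.18) spans chr16:91372783-91405589, Il10rb (ENSMUSG00000022969.13) chr16:91406164-91425834, Ifnar1 (ENSMUSG00000022967.13) chr16:91485238-91507441 and Ifngr2 (ENSMUSG00000022965.8) chr16:91547072-91565623. A readthrough gene, Gm21970, overlaps 9.46% of the exon bases of Ifnar2 and 14.9% of those of Il10rb, and it had 0 counts in all 18 libraries. The labels do not say how reads in the shared bases were counted, so the levels of Ifnar2 and Il10rb are uncertain to that extent. Ifnar1 and Ifngr2 share no exon bases with another gene.

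To show what these neighbouring genes share in sequence at their starts, the 250 bases before the RefSeq starts of Ifnar2, Ifnar1 and Ifngr2, 3 of the 4 genes, are given (GRCm38.p6, plus strand, 5′ to 3′). Capitals mark GC boxes (GGGCGG, overlapping copies included) and the match to the STAT dimer motif GAS (TTCNNNGAA). The windows are chr16:91372533-91372782 for Ifnar2, chr16:91484965-91485214 for Ifnar1 and chr16:91546809-91547058 for Ifngr2.
Ifnar2: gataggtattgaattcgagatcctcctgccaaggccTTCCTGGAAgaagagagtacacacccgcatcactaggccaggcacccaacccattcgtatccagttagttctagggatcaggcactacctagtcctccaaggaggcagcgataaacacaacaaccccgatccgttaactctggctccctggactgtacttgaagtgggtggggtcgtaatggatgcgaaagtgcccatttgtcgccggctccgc
Ifnar1: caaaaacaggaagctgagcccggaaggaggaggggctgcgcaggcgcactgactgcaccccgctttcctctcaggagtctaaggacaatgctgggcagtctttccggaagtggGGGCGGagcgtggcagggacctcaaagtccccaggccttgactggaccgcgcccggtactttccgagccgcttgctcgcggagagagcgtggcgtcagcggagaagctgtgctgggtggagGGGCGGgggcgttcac
Ifngr2: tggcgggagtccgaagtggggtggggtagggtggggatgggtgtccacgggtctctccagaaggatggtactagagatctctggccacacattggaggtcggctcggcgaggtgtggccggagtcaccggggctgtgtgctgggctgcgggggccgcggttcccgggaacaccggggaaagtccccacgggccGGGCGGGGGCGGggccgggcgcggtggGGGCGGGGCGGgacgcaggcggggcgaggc

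The windows differed in base composition, with a G and C content of 54.0% for Ifnar2, 65.6% for Ifnar1 and 74.0% for Ifngr2, where the median over 32851 RefSeq promoter windows of the same length was 52.4%. Both strands were searched for 6 motifs. GC boxes stood at positions -137 and -16 of Ifnar1 (first base, counted back from the start) and at -57, -51, -30 and -25 of Ifngr2, and 32.7% of all windows hold one. The GAS motif was found once, at -214 of Ifnar2, and 7.02% of all windows hold it. The ETS core (CCGGAAG, in 6.91% of windows) stood at -231 and -147 of Ifnar1, and a CCAAT box (CCAAT, in 33.8%) at -160 of Ifngr2 on the minus strand. The core of the interferon-stimulated response element (ISRE, in 2.98%) and the TATA box (TATAAA, in 12.4%) had no match in these 3 windows.

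Total counts per library ran from 38236222 to 59923315, and 15208 genes passed the low count filter, all 4 receptor genes among them. TMM factors ran from 0.803 in Dp16 library 4 to 1.34 in Dp16 library 5. All 9 liver cell marker lists were detected with no marker at 0 in every library, and for each list the ranges of the summed CPM overlapped between the 3 genotypes. The summed hepatocyte markers ran from 89000 to 142500 CPM in Dp16-2xIFNRs, from 81260 to 125500 in Dp16 and from 90200 to 131800 in wild-type livers.

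Per gene length, Ifnar2 was the most abundant of the 4 genes. Its level ran from 18.4 to 24.5 RPKM (reads scaled to gene length and library size, median 20.2) in Dp16-2xIFNRs, from 23.8 to 32.2 (median 28.6) in Dp16 and from 18.1 to 20.5 (median 19.8) in wild-type livers. It exceeded Ifngr2 in 18 of 18 libraries, by a median ratio of 2.8. Ifngr2, whose median RPKM was 6.87 in Dp16-2xIFNRs, 10.75 in Dp16 and 8.0 in wild-type livers, and Ifnar1, with 5.80, 8.47 and 5.60 RPKM in those genotypes, were neighbours in the order whose ranges overlapped: Ifngr2 was the higher in 12 of 18 libraries. Il10rb was the lowest, with medians of 3.53 RPKM in Dp16-2xIFNRs, 6.14 in Dp16 and 2.97 in wild-type livers, and Ifnar1 exceeded it in 17 of 18 libraries. The lengths behind these RPKM were 3174 bases for Ifnar2, 3708 for Ifngr2, 3909 for Ifnar1 and 1850 for Il10rb. The exon bases in GENCODE M21 are 3329, 3767, 5940 and 3808. With these lengths Ifnar1 would be lower relative to Ifngr2, so the distance between them depends on the length used.

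**Figure D1:**
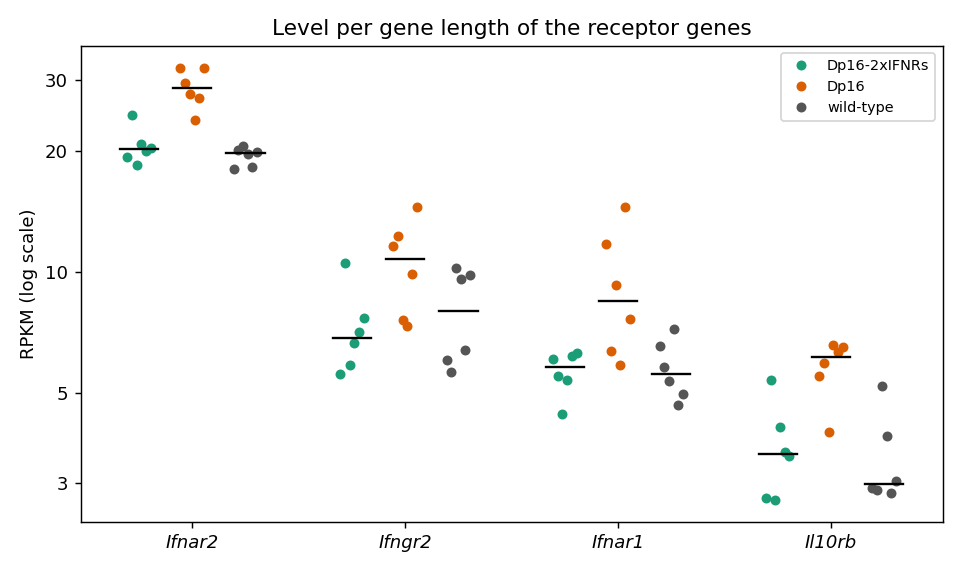
Level per gene length (RPKM, log scale) of the 4 receptor genes, with a point per library and a line at the median of each genotype (n = 6). Ifnar2 lies above the other genes in all 18 libraries, and the points of Ifngr2 and Ifnar1 overlap.

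Dp16 livers were set against wild-type livers to see whether the extra gene copy shows in the RNA. Ifnar2, Ifnar1 and Il10rb stood higher in Dp16 livers, by 1.43-fold, 1.497-fold and 1.68-fold, and every Dp16 library exceeded the wild-type mean log2 CPM for these 3 genes. Ifngr2 was 1.31-fold higher with an interval that held no change. In the edgeR quasi-likelihood test 0 of the 4 genes passed an adjusted p of 0.05, beside 6 of all 15208 genes (0.0395%), and 3 of 4 had an unadjusted p under 0.05 and were higher, beside 2.52% of all genes. In bulk tissue a different number of cells of a type and a different amount of RNA per cell cannot be told apart.

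Ifnar2, the chain that binds type I interferon with the higher affinity, had 64.2 CPM in the lowest, 93.0 at the median and 97.3 in the highest Dp16 library, and 55.6, 62.2 and 69.3 CPM in wild-type libraries, where CPM are counts scaled to library size and TMM factor. A single Dp16 library, number 5, lay within the wild-type range. The log2 fold change was 0.52 (SE 0.13, 95% interval 0.25 to 0.79, edgeR adjusted p = 0.246), and p was 0.00433 in a two-sided exact permutation test of the 12 libraries (924 arrangements). Here and below the permutation p-values are not adjusted. The main tests were 12 for the levels of the 4 genes, 12 for the chain ratios and 12 for levels relative to neighbours. Many more were computed with other settings and with each library left out, and those quoted below are not adjusted for this number.

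Ifnar1, the partner chain, had 25.98, 31.7 and 42.4 CPM (lowest, median and highest) in Dp16 libraries and 19.8, 21.8 and 25.5 CPM in wild-type libraries. On TMM-scaled CPM it was the one member whose genotypes did not overlap in this comparison, which held for 0.138% of all genes tested in the higher direction. The member without overlap changed with the scaling. In RPKM the Ifnar1 ranges overlapped, at 5.885 to 14.52 in Dp16 and 4.675 to 7.224 in wild-type livers. Those of Ifnar2 did not, at 23.8 to 32.21 and 18.07 to 20.53 RPKM. The share of all genes without overlap in RPKM was not computed. The log2 fold change of Ifnar1 was 0.58 (SE 0.15, interval 0.27 to 0.89, edgeR adjusted p = 0.28), with p = 0.00217 in the exact permutation test, the smallest that 924 arrangements can give. DESeq2 called Ifnar1 (adjusted p = 0.0188) and Ifnar2 (adjusted p = 0.0209) in this comparison, among 72 of 15208 genes. On log2 RPKM limma called Ifnar2, among 12 genes.

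Ifngr2, the chain that couples interferon gamma binding to JAK2, had 26.8, 36.4 and 51.2 CPM in Dp16 libraries and 20.4, 28.9 and 40.0 CPM in wild-type libraries. The ranges overlapped widely, and 4 of 6 Dp16 libraries exceeded the wild-type mean log2 CPM. The log2 fold change was 0.39 (SE 0.19, interval -0.003 to 0.78, edgeR adjusted p = 0.999), and the exact permutation test gave p = 0.156. The interval also holds the 0.585 of a 3 to 2 copy ratio.

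Il10rb had 7.04, 10.3 and 15.2 CPM in Dp16 libraries and 5.17, 5.90 and 9.40 CPM in wild-type libraries. The highest wild-type library, number 3, stood above 3 of the Dp16 libraries. The log2 fold change was 0.75 (SE 0.21, interval 0.31 to 1.19, edgeR adjusted p = 0.397), and the exact permutation test gave p = 0.00866. The intervals of all 4 genes held the 3 to 2 ratio.

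**Figure D2:**
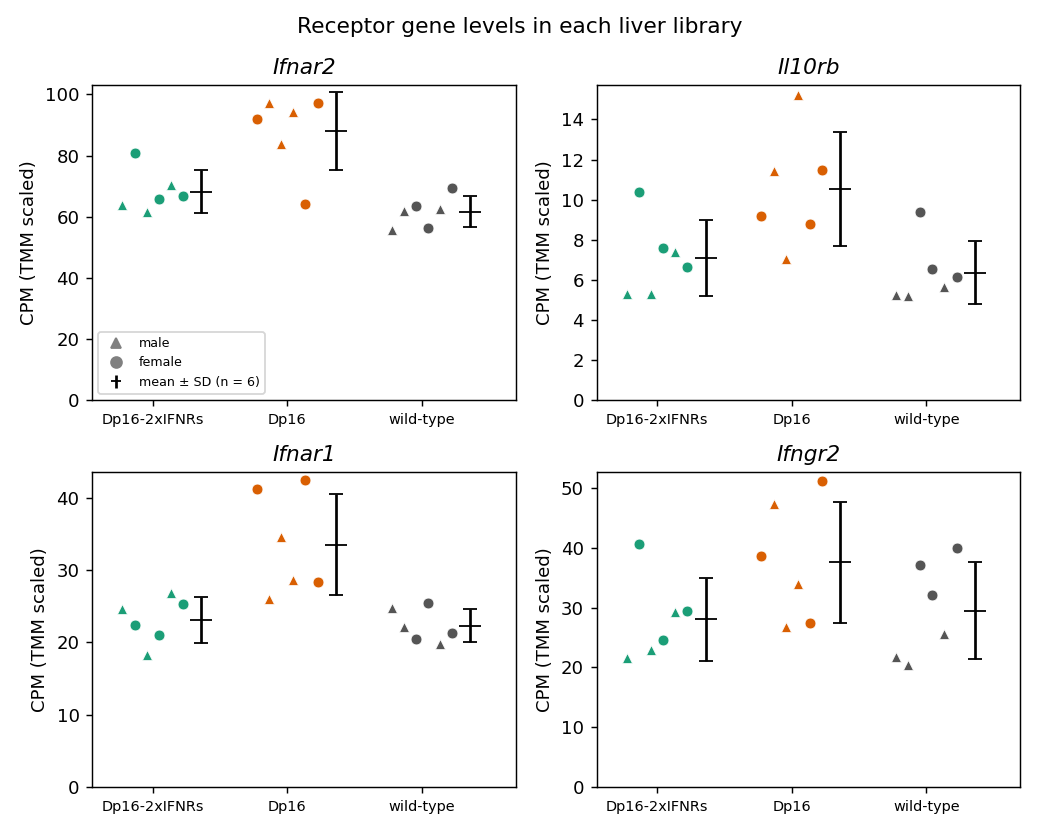
CPM of the 4 receptor genes (vertical axis from 0) in each library of the 3 genotypes, triangles for males and circles for females, with the mean ± SD of 6 libraries. For Ifnar1 the lowest Dp16 library (25.98 CPM) lies above the highest wild-type library (25.5 CPM).

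Dp16-2xIFNRs livers were set against wild-type livers to see whether the receptor genes are back at their normal level. None of the 4 genes differed beyond the spread between libraries. In edgeR 0 of 4 passed an adjusted p of 0.05, beside 15 of 15208 genes (0.0986%), and 0 of 4 had an unadjusted p under 0.05, beside 8.66% of all genes.

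Ifnar2 had 61.5, 66.2 and 80.9 CPM (lowest, median and highest) in Dp16-2xIFNRs libraries, against the 55.6, 62.2 and 69.3 CPM of wild-type libraries given above. Every Dp16-2xIFNRs library exceeded the wild-type mean log2 CPM, the ranges overlapped, and the log2 fold change was 0.15 (interval -0.12 to 0.41, exact permutation p = 0.0758, or 0.026 without wild-type library 6 and 0.0498 without Dp16-2xIFNRs library 3). Ifnar1 had 18.3, 23.6 and 26.9 CPM in Dp16-2xIFNRs libraries, a log2 fold change of 0.05 against wild-type (interval -0.26 to 0.36, exact permutation p = 0.68). Both intervals exclude the 0.585 of a 3 to 2 ratio.

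Ifngr2 had 21.5, 26.9 and 40.7 CPM in Dp16-2xIFNRs libraries, a log2 fold change of -0.05 against wild-type (interval -0.44 to 0.34, exact permutation p = 0.786), and its interval excludes 0.585 as well. Il10rb had 5.27, 7.01 and 10.4 CPM in Dp16-2xIFNRs libraries, a log2 fold change of 0.16 (interval -0.28 to 0.60, exact permutation p = 0.47). Its upper bound, 0.597 before rounding, still holds a 3 to 2 ratio, so the interval of Il10rb does not separate 2 copies from 3.

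Dp16-2xIFNRs livers were set against Dp16 livers to see how these genes stand with 2 rather than 3 receptor copies. All 4 were lower in Dp16-2xIFNRs, at 0.773 times the Dp16 level for Ifnar2, 0.662 for Il10rb, 0.691 for Ifnar1 and 0.738 for Ifngr2. In edgeR 0 of 4 passed an adjusted p of 0.05 (0.532 for each), in a comparison where 0 of 15208 genes did (0%). At an adjusted p under 0.05 DESeq2 called 7 genes and limma-voom 0. At an unadjusted p under 0.05 edgeR had 1418 genes (9.32%). All 4 receptor genes had an unadjusted p under 0.05 and were lower, beside 7.11% of all genes.

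Ifnar1 had the smallest unadjusted p of the 4, with a log2 fold change of -0.53 (SE 0.15, interval -0.84 to -0.22, exact permutation p = 0.00433). A single Dp16 library, number 2 at 25.98 CPM, lay within the Dp16-2xIFNRs range. Ifnar2 had a log2 fold change of -0.37 (SE 0.13, interval -0.64 to -0.10, exact permutation p = 0.0152), and Dp16 library 5 at 64.2 CPM lay within the Dp16-2xIFNRs range. None of the 4 genes was without overlap, which held for 0.105% of all genes in the lower direction.

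Il10rb had a log2 fold change of -0.59 (SE 0.21, interval -1.04 to -0.15) with p = 0.0281 in the exact permutation test, and 0.0714 without Dp16 libraries 4 and 5. The p was also above 0.05, at 0.0541 to 0.0563 in the exact permutation test, without any one of Dp16-2xIFNRs libraries 1 and 3 and Dp16 libraries 2, 4 and 6. Ifngr2 had -0.44 (SE 0.19, interval -0.83 to -0.05) with p = 0.0801 on TMM-scaled CPM and 0.0325 on log2 RPKM in the exact permutation test. On CPM it was 0.026 without Dp16-2xIFNRs library 2, 0.0455 without Dp16 library 3 and 0.0498 without Dp16 library 5 in the exact permutation test. For both genes 5 of 6 Dp16-2xIFNRs libraries lay below the Dp16 mean log2 CPM, with library 2 above it. The intervals of all 4 genes held the 2 to 3 copy ratio.

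The 10 nearest tested protein-coding neighbours, 5 on each side, show how the genes around the cluster stood in the same libraries. Against wild-type, Dp16 livers had a median log2 fold change of 0.55 over the 4 receptor genes, 0.55 over the 10 neighbours, 0.62 over the 93 other tested genes of the duplicated segment and 0.01 over all genes. In Dp16-2xIFNRs against wild-type these medians were 0.10, 0.22, 0.49 and -0.02. In Dp16-2xIFNRs against Dp16 they were -0.49, -0.09, -0.05 and -0.02. The 2 comparisons with wild-type share the wild-type libraries.

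Among the neighbours, Tmem50b, which follows Ifngr2, had 9.16 ± 1.72 CPM in Dp16-2xIFNRs, 6.93 ± 0.811 in Dp16 and 4.39 ± 1.15 in wild-type livers (SD, n = 6). It was 2.09-fold higher in Dp16-2xIFNRs than in wild-type livers (edgeR adjusted p = 0.0352), the one neighbour called. Cfap298, on the other side, had 17.8 ± 3.55, 16.5 ± 4.92 and 10.5 ± 2.74 CPM in those genotypes, a log2 fold change of 0.77 in Dp16-2xIFNRs against wild-type (edgeR adjusted p = 0.117). Other neighbours lay nearer to wild-type in Dp16-2xIFNRs: Son, a splicing cofactor next to Donson, had a log2 fold change of -0.10 (interval -0.70 to 0.50) and Synj1, a phosphoinositide phosphatase, -0.01 (interval -0.64 to 0.62).

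**Figure D3:**
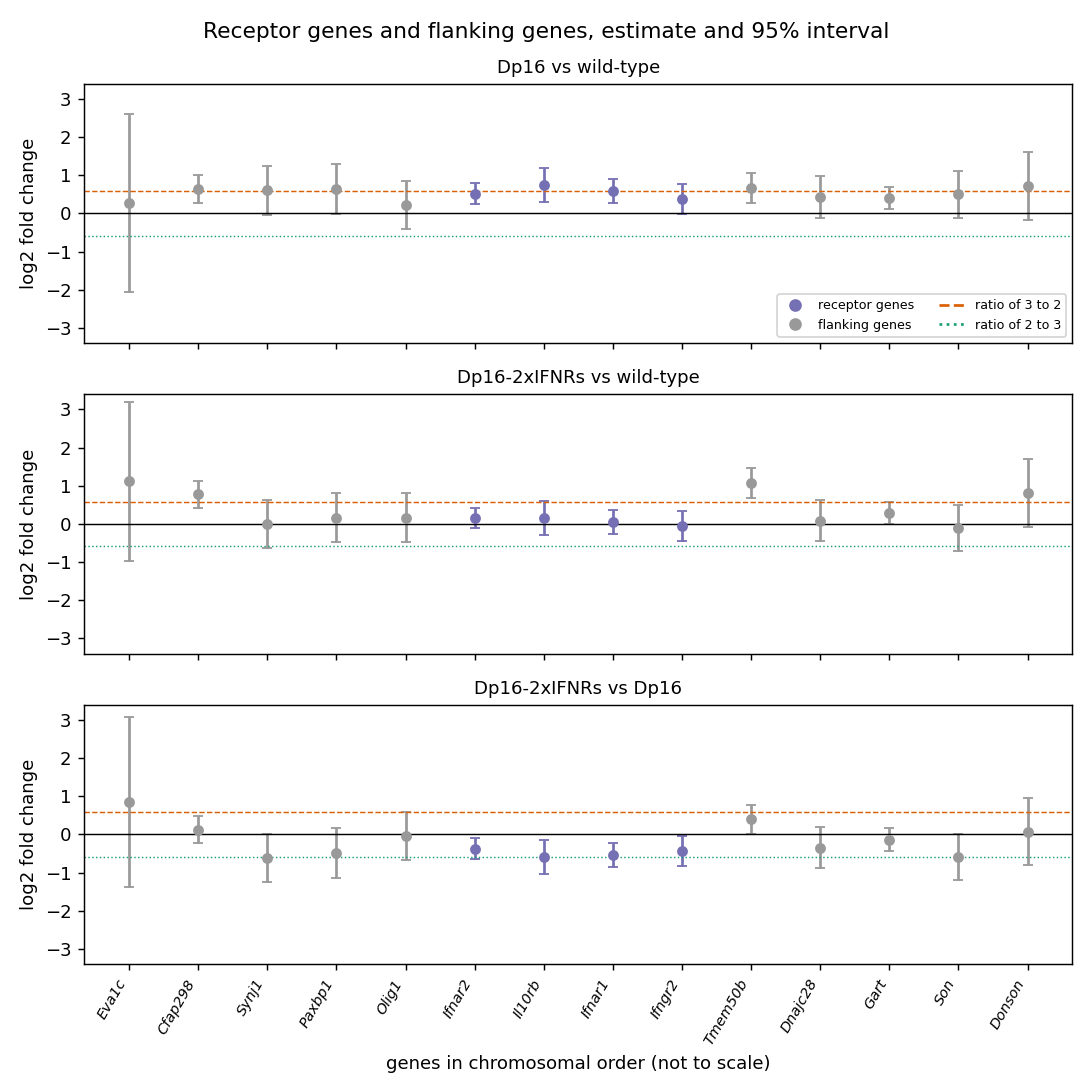
Log2 fold change (vertical axis, edgeR estimate with 95% interval) of the 4 receptor genes and the 10 neighbours in chromosomal order, for the 3 comparisons; dashed and dotted lines mark copy ratios of 3 to 2 and 2 to 3. Tmem50b lies at 1.07 in Dp16-2xIFNRs against wild-type, where the receptor genes lie between -0.05 and 0.16.

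The level of each receptor gene relative to the mean log2 level of the 10 neighbours in the same library was then compared. Each neighbour has the same weight in that mean, also those with few counts or a wide spread. In Dp16-2xIFNRs livers Eva1c ran from 0.222 to 1.22 CPM and Olig1 from 2.04 to 20.9 CPM. Ifnar1 relative to its neighbours was lower in Dp16-2xIFNRs, by a log2 difference of -0.52 against Dp16 (two-sided exact permutation p = 0.00433) and of -0.43 against wild-type (exact permutation p = 0.0217, or 0.117 with the 3 nearest genes on each side). The differences of Ifnar2, Il10rb and Ifngr2 relative to the neighbours ran from -0.56 to -0.33 in these comparisons, with exact permutation p-values of 0.128 to 0.351. Without Dp16 library 5, Ifnar2 against Dp16 gave -0.52 (exact permutation p = 0.0303). Relative to all tested genes of the segment in place of the neighbours, Dp16-2xIFNRs against wild-type gave -0.45 for Ifnar2 (exact permutation p = 0.00217), -0.45 for Il10rb (exact permutation p = 0.039) and -0.65 for Ifngr2 (exact permutation p = 0.013). In Dp16 against wild-type livers, relative to the neighbours, the 4 differences ran from -0.13 to 0.23, with exact permutation p-values of 0.446 to 0.907.

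The chains of a receptor can be compared within a library, where no scaling between libraries enters. The Ifnar1 to Ifnar2 ratio of RPKM had medians of 0.284 in Dp16-2xIFNRs, 0.291 in Dp16 and 0.276 in wild-type livers, and no comparison passed a p of 0.05 (exact permutation p = 0.463 to 0.799). Dp16 library 5 had the highest ratio, 0.537, against 0.217 to 0.365 in the other Dp16 libraries. In that library Ifnar1 was the highest and Ifnar2 the lowest of the Dp16 group in CPM.

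Ifngr1, the ligand-binding chain of the interferon gamma receptor, lies outside the segment and had 8.29 ± 1.497 RPKM in Dp16-2xIFNRs, 8.11 ± 0.867 in Dp16 and 7.45 ± 1.71 in wild-type livers (SD, n = 6). The Ifngr2 to Ifngr1 ratio had medians of 0.785, 1.29 and 1.06 in those genotypes. Its log2 difference was -0.55 in Dp16-2xIFNRs against Dp16 (exact permutation p = 0.0714), -0.29 in Dp16-2xIFNRs against wild-type (p = 0.19 in the exact permutation test) and 0.26 in Dp16 against wild-type (p = 0.242 in the exact permutation test). Without Dp16-2xIFNRs library 2, which had the highest ratio of its group, the first difference was -0.70 and the second -0.44 (p = 0.0303 and 0.0281 in the exact permutation test). The first also passed without Dp16 library 3 (exact permutation p = 0.0498) or 4 (exact permutation p = 0.0476).

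In RPKM the Il10rb chain exceeded its partner in every library. Il10ra, the ligand-binding chain for interleukin 10, had 0.584 ± 0.196 RPKM in Dp16-2xIFNRs, 0.892 ± 0.443 in Dp16 and 0.801 ± 0.187 in wild-type livers (SD, n = 6). The Il10rb to Il10ra ratio had medians of 6.20, 7.24 and 4.24 in those genotypes, with a log2 difference of 0.72 in Dp16 against wild-type (exact permutation p = 0.0541) and 0.61 in Dp16-2xIFNRs against wild-type (exact permutation p = 0.0649). Dp16 library 4 had a ratio of 18.2, far above the next Dp16 library at 7.85, and without it the first difference was 0.45 (exact permutation p = 0.104). Without Dp16 library 5 it was 0.91 (exact permutation p = 0.0108), and without both it was 0.62 (exact permutation p = 0.0381). The p also fell under 0.05 without Dp16 library 3 (exact permutation p = 0.039) or wild-type library 3 (exact permutation p = 0.0368), and that of the second difference without Dp16-2xIFNRs library 3 (exact permutation p = 0.0281), Dp16-2xIFNRs library 5 (exact permutation p = 0.0411) or wild-type library 3 (exact permutation p = 0.039).

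**Figure D4:**
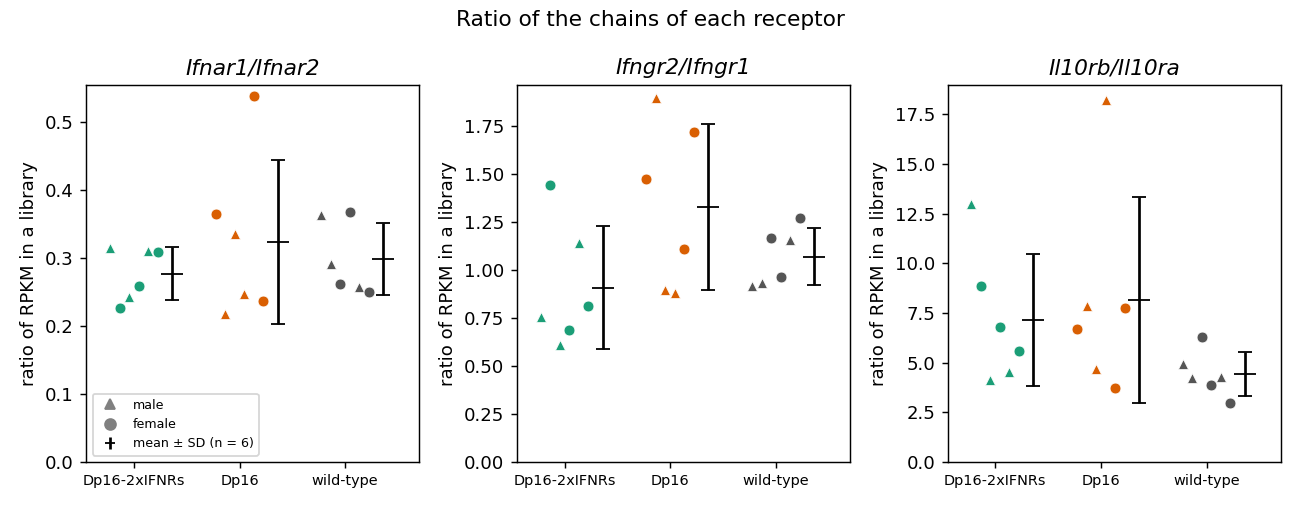
Ratio of RPKM of the chains of each receptor (vertical axis from 0) in each library of the 3 genotypes, triangles for males and circles for females, with the mean ± SD of 6 libraries. The genotypes overlap in all 3 ratios, and single Dp16 libraries reach 0.537 for Ifnar1 to Ifnar2 and 18.2 for Il10rb to Il10ra.

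Of the other partners of Il10rb, Ifnlr1 was scarce and Il22ra1 was low, as Il10ra was. Ifnlr1, the interferon lambda chain, summed to 15 counts in Dp16-2xIFNRs, 26 in Dp16 and 34 in wild-type livers, with 0 counts in 4, 4 and 3 of the 6 libraries, so that a ratio of Il10rb to Ifnlr1 follows Il10rb and the 0.1 RPKM added to both, and none is read here. Il22ra1, the interleukin 22 chain, had 0.325 ± 0.139 RPKM in Dp16-2xIFNRs, 0.937 ± 0.791 in Dp16 and 0.729 ± 0.635 in wild-type livers (SD, n = 6), with a log2 fold change of -1.18 in Dp16-2xIFNRs against Dp16 (edgeR adjusted p = 0.532). Il20rb and Il20ra, chains of the interleukin 20 family receptors, were scarce as well: Il20rb summed to 52 counts in Dp16-2xIFNRs, 55 in Dp16 and 96 in wild-type livers, and Il20ra to 8, 0 and 0. Of the 6 receptor chains listed outside the segment, 4 were tested and 0 were called in edgeR. Of all genes, edgeR called 0.0395% in Dp16 against wild-type, 0.0986% in Dp16-2xIFNRs against wild-type and 0% in Dp16-2xIFNRs against Dp16.

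The ligands were almost absent from these livers. Of 23 ligand genes in the table, 0 passed the low count filter and 21 had 0 counts in all 18 libraries, among them Ifnb1 and all the interferon alpha genes listed. Ifng summed to 25 counts in Dp16-2xIFNRs, 2 in Dp16 and 0 in wild-type livers, and Il10 to 4, 14 and 8.

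Downstream of the receptors 0 of the 54 tested genes were called in edgeR in any comparison, in lists of 7 kinases and transcription factors, 7 feedback inhibitors, 20 type I and 20 type II interferon targets. With 6, 15 and 0 of 15208 genes called in the 3 comparisons, 0 of 54 is near the background. In Dp16 against wild-type the median log2 fold change was 0.09 for the kinases and factors, 0.05 for the inhibitors, -0.14 for the type I and -0.06 for the type II targets. In Dp16-2xIFNRs against wild-type the medians were -0.29, -0.05, -0.13 and -0.12, and in Dp16-2xIFNRs against Dp16 -0.40, -0.06, -0.08 and -0.10. At an unadjusted edgeR p under 0.05, Dp16 livers had 2 of the 54 genes higher (3.7%) and 1 lower (1.85%) than wild-type, beside 2.52% and 2.35% of all genes (4.87% in both directions). Dp16-2xIFNRs livers had 3 higher (5.56%) and 9 lower (16.7%) than wild-type, beside 3.43% and 5.23% of all genes. The 9 were 3 type I targets, 3 type II targets, 2 kinases or factors and 1 inhibitor. Against Dp16, Dp16-2xIFNRs livers had 0 higher and 7 lower (13%), beside 2.21% and 7.11% of all genes, and the 7 were 3 type I targets, 2 type II targets, 1 kinase or factor and 1 inhibitor.

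Genes with small p-values in these lists, none of them called, are given as values only. Cxcl9, a chemokine induced by interferon gamma, had a log2 fold change of 1.07 in Dp16 against wild-type (edgeR adjusted p = 0.683) and 0.95 in Dp16-2xIFNRs against wild-type (edgeR adjusted p = 0.498). Gbp7, another type II target, had -0.81 in Dp16-2xIFNRs against wild-type (edgeR adjusted p = 0.445) and -0.73 against Dp16 (edgeR adjusted p = 0.532). Irf8 had 0.51 in Dp16 against wild-type (edgeR adjusted p = 0.9475) and 0.61 in Dp16-2xIFNRs against wild-type (edgeR adjusted p = 0.477). In each comparison 8 of the 20 type II targets lay above 0 and 12 below. Ifih1, a sensor of viral RNA, had -0.62 in Dp16-2xIFNRs against wild-type (edgeR adjusted p = 0.183) and -0.46 in Dp16-2xIFNRs against Dp16 (edgeR adjusted p = 0.532). Rtp4, a type I target, had -0.43 in Dp16 against wild-type (edgeR adjusted p = 0.831). Oas2, at 69 summed counts in Dp16-2xIFNRs livers, had -2.01 there against wild-type (edgeR adjusted p = 0.471) and -1.695 against Dp16 (edgeR adjusted p = 0.532). Of the 20 type I targets, 7 lay above 0 and 13 below in Dp16 against wild-type. In Dp16-2xIFNRs, 6 lay above and 14 below against wild-type, and 8 and 12 against Dp16. Stat3, the main transducer of interleukin 10, had -0.68 in Dp16-2xIFNRs against Dp16 (edgeR adjusted p = 0.532).

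Of the 4 genes, Ifngr2 had the largest estimate of a difference between the sexes. Male livers averaged 27.8 ± 8.56 CPM of Ifngr2 and female livers 35.7 ± 8.23 CPM (SD, n = 9), a log2 difference of -0.39 male minus female (interval -0.71 to -0.07, edgeR adjusted p = 0.16). With 1 of 4 members at an unadjusted p under 0.05, beside 18.8% of all genes, and 0 of 4 called in edgeR, beside 6.56%, the share is near the background. The intervals of Ifnar2, Il10rb and Ifnar1 held 0. In the test of the sex by genotype interaction the smallest unadjusted edgeR p over the 4 genes and 3 comparisons was 0.124 (adjusted p = 0.582 in edgeR).

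After genotype and sex means were removed, 3 of the genes varied together and Ifnar1 varied the other way. Over the 18 libraries Pearson's r was 0.823 between Ifnar2 and Ifngr2, 0.638 between Il10rb and Ifngr2 and 0.592 between Ifnar2 and Il10rb. Ifnar1 had r of -0.507 with Ifnar2, -0.462 with Il10rb and -0.521 with Ifngr2. Without Dp16 libraries 4 and 5 the first 3 were 0.755, 0.746 and 0.641 and those of Ifnar1 were -0.303, -0.375 and -0.386 (n = 16). These values share the library and its scaling factor, and they are given as a description.

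Over the 18 libraries, with genotype and sex left in, Pearson's r of log2 CPM was 0.794 between Ifnar2 and Il10rb, 0.755 between Il10rb and Ifngr2 and 0.718 between Ifnar2 and Ifngr2, and Ifnar1 had r of 0.442 with Ifnar2, 0.388 with Il10rb and 0.205 with Ifngr2. Outside the 4 receptor genes, and among genes that averaged 1 or more in log2 CPM, Ifnar1 was most like Cyyr1, another gene of the duplicated segment (r = 0.856), Usp6nl (0.804) and Ttf1 (0.798). Leaving the receptor genes aside in the same way, Il10rb was most like Cmtm3 (r = 0.745), Zfp984 (0.743) and the collagen gene Col6a1 (0.733). The nearest to Ifngr2 were 2810402E24Rik (r = 0.789), Il34 (0.747) and Maff (0.736). The nearest to Ifnar2 were Cygb (r = 0.647), Prkch (0.643) and Adamts5 (0.64), which lies in the segment, all below its r with Il10rb and Ifngr2. With genotype and sex removed, Cyyr1 kept r = 0.902 with Ifnar1, and Adamts5 had r = 0.242 with Ifnar2. Then 1589, 3368 and 3645 genes had a higher r with Ifnar2 than Cygb, Prkch and Adamts5. For Il10rb 74 genes stood above Cmtm3 and 2382 above Col6a1. For Ifngr2 31 stood above 2810402E24Rik and 1537 above Maff, and for Ifnar1 3 stood above Cyyr1 and 1188 above Ttf1.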

How the data were processed

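Liver RNA libraries of 18 mice (strand-specific, paired-end, polyadenylated RNA, per the labels' protocols) were analysed from 2 tables. The deposited count table holds whole-number read counts per gene. The authors' RPKM table holds the same counts scaled to gene length and column total, which was checked for 25480 of 25480 genes with counts (tolerance 0.1%). Per the submitters' processing notes reads were handled with HISAT2 2.1.0, HTSeq 0.6.1, SAMtools 1.5, FastQC 0.11.5 and bcl2fastq, and the build was GRCm38. The strand setting of the counting was not stated in these notes or labels. Gene identifiers were looked up in GENCODE M21 (99.56% found).

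Counts were filtered with filterByExpr, scaled with TMM and tested with the edgeR 4.0.16 quasi-likelihood test (R 4.3.3; genotype and sex as terms, all 18 libraries), with Benjamini-Hochberg adjustment over 15208 genes and calls at an adjusted p under 0.05. Log2 CPM used a prior count of 2. Single values were compared with two-sided exact permutation tests (924 arrangements, scripts in Python with numpy 2.4.6). The scripts were tested on simulated data.

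The 4 genes and all lists were chosen with earlier results of these data known. Genes are named by a rule: the members, their partner chains, the 5 nearest tested neighbours on each side, the smallest p-values of each list, and the 3 tested genes most like each member, other than the members. From the neighbours and lists the text names the few that the results turn on. Promoter windows and motif shares come from RefSeq (GRCm38.p6). Alternatives were DESeq2 1.42.0, limma 3.58.1 (voom and log2 RPKM), other scalings, filters and terms, each sex alone, a replicate block, and each library left out.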

Additional observations from a re-analysis of the deposited data

Results flagged for a closer look

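Of 24 groups of 6 libraries examined (the 4 genes in CPM and 4 chain ratios, in 3 genotypes), 3 held a single library far from the others, where chance flags about 1 group in 20 for independent groups, which these are not. Il10rb had 9.40 CPM in wild-type library 3, above the 5.17 to 6.55 CPM of the other wild-type libraries. The ratio of Il10rb to Ifnlr1 was 53.0 in the same library, with 0.1 RPKM added to both genes, and with Ifnlr1 near 0 it is the same Il10rb value again. The ratio of Il10rb to Il10ra was 18.2 in Dp16 library 4, against 3.70 to 7.85 in the other Dp16 libraries. For the 4 genes no comparison moved every male library one way and every female library the other.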

How the results depend on the processing

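The 8 log2 fold changes of the 4 genes in Dp16 against wild-type and in Dp16-2xIFNRs against Dp16 kept their direction under every alternative run, and none was called in edgeR under any of them. In Dp16 against wild-type DESeq2 called Ifnar1 (0.59) and Ifnar2 (0.53), and limma called Ifnar2 on log2(RPKM + 0.1) (0.56) and on log2(RPKM + 1) (0.54); the cause was not tested. In Dp16-2xIFNRs against wild-type the values near 0 changed sign: Ifngr2 was 0.13 in males only, and Ifnar1 was -0.02 (-0.0229 and -0.0204) with limma on log2 RPKM with 0.1 and 1 added, -0.0229 in the permutation test on log2 RPKM.

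Counts of called genes moved with the fit. In Dp16 against wild-type, 6 genes were called, and 72 with DESeq2, 12 with limma-voom and with limma on either log2 RPKM, 3 with no sex term, 1 with only the groups compared, 0 in each sex alone and 1 without Dp16 replicates 4 and 5. In Dp16-2xIFNRs against wild-type, 15 were called, and 127 with DESeq2, 7 with no sex term, 23 with the first digits of the description number as a term, 43 with only the groups compared, 0 in each sex alone, 45 and 23 with limma on log2 RPKM with 0.1 and 1 added. In Dp16-2xIFNRs against Dp16, 0 were called in edgeR and 7 with DESeq2.

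For the sex difference limma on log2 RPKM called Ifngr2 (-0.51 and -0.46 with 0.1 and 1 added). Of all 15208 genes, edgeR called 998 for sex and limma-voom 1089. The number for limma on log2 RPKM is not given here, so this call is not read as particular to Ifngr2.

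The labels do not say whether the replicate numbers pair the mice. The correlations of same-numbered libraries ran from -0.449 to 0.342, with 8 of 18 over 0.1, which does not settle it. Among those that share the full number in their description, library 1 of Dp16-2xIFNRs and wild-type had 0.3325. Library 6 of Dp16-2xIFNRs and Dp16 had 0.3385. With the replicate number as a block edgeR called 5, 21 and 0 genes in Dp16 against wild-type, Dp16-2xIFNRs against wild-type and Dp16-2xIFNRs against Dp16, and Ifnar2 male minus female turned to 0.0263. In sign flips within the block (smallest possible p 0.03125 over 64) Il10rb in Dp16 against wild-type (0.71) and Ifnar2 in Dp16-2xIFNRs against Dp16 (-0.36) had an exact p of 0.0625.

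Il10rb had the fewest counts of the receptor genes, at 228 to 703 a library, against 2518 to 5382 for Ifnar2. How much of its spread comes from depth was not tested. In the other exact permutation tests, Ifngr2 in Dp16-2xIFNRs against Dp16 passed on log2 RPKM (-0.53), and Il10rb there no longer did without Dp16 replicates 4 and 5 (-0.48). Without those 2 libraries the Ifnar1 to Ifnar2 ratio in Dp16 against wild-type was -0.0635, Ifngr2 to Ifngr1 in Dp16-2xIFNRs against Dp16 -0.73, Il10rb to Il10ra in Dp16 against wild-type 0.62 and Ifngr2 relative to neighbours in Dp16 against wild-type 0.02 (0.0154). With 1 RPKM added, Il10rb to Il10ra in Dp16 against wild-type (0.57) passed. Il10rb to Ifnlr1 in Dp16-2xIFNRs against Dp16 (-0.55) did so too, but with Ifnlr1 near 0 that value only restates the level of Il10rb. Relative to all tested genes of the segment, Dp16-2xIFNRs was lower than wild-type for Ifnar2 (-0.45), Il10rb (-0.45) and Ifngr2 (-0.65) and lower than Dp16 for Ifnar2 (-0.39) and Il10rb (-0.60), and Ifnar2 in Dp16 against wild-type was -0.0553. Permuted within sex, Ifngr2 relative to neighbours in Dp16-2xIFNRs against wild-type passed (-0.53), and with the 3 nearest genes on each side Ifnar1 there did not (-0.27).

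Leaving out each library in turn gave these ranges where a sign or a side of the threshold changed. Called genes ran from 1 to 9 in Dp16 against wild-type and from 4 to 48 in Dp16-2xIFNRs against wild-type, both highest without Dp16 library 4. Log2 fold changes in Dp16-2xIFNRs against wild-type ran from -0.146 to 0.0188 for Ifngr2 and from -0.0175 to 0.101 for Ifnar1, and Ifnar2 male minus female from -0.0942 to 0.00903. Differences in mean log2 CPM ran from 0.0946 to 0.18 for Ifnar2, from -0.00297 to 0.108 for Ifnar1, from -0.173 to 0.0382 for Ifngr2 in Dp16-2xIFNRs against wild-type, and from -0.681 to -0.449 for Il10rb, from -0.526 to -0.315 for Ifngr2 in Dp16-2xIFNRs against Dp16. Log2 differences of the chain ratios ran from -0.101 to 0.161 for Ifnar1 to Ifnar2, from 0.451 to 0.91 for Il10rb to Il10ra in Dp16 against wild-type, and from -0.438 to -0.189 for Ifngr2 to Ifngr1, from 0.415 to 0.747 for Il10rb to Il10ra in Dp16-2xIFNRs against wild-type, and from -0.698 to -0.435 for Ifngr2 to Ifngr1, from -0.307 to 0.162 for Il10rb to Il10ra, from -0.738 to -0.399 for Il10rb to Ifnlr1 in Dp16-2xIFNRs against Dp16. Log2 differences relative to neighbours ran from -0.0832 to 0.189 for Ifnar2, from -0.287 to 0.0627 for Ifngr2 in Dp16 against wild-type, and from -0.518 to -0.26 for Ifnar2 in Dp16-2xIFNRs against Dp16.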

Other observations

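Within the cluster, the other rows of the table held few counts. The pseudogene Gm7860, between Ifnar1 and Ifngr2, summed to 106 counts in Dp16-2xIFNRs, 46 in Dp16 and 48 in wild-type livers. The noncoding A930006K02Rik, between Il10rb and Ifnar1, summed to 81, 123 and 30 counts in those genotypes, and 73 of the 123 Dp16 counts came from a single library. The lincRNA Gm49625 summed to 0, 1 and 6 counts. These sums were not tested.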
